A study of Homo sapiens with 21 samples.

Results

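The 10 transcripts described here belong to the core circadian clock and its immediate outputs, namely the period genes PER1, PER2 and PER3, the cryptochromes CRY1 and CRY2, the activator CLOCK, the REV-ERB receptors NR1D1 and NR1D2, and the D-box activators DBP and TEF. They were taken by symbol from the 37637 features of the count table, and all 10 were found and had enough counts to be tested. HepG2, an established human liver cancer line, received caffeine at 0.01, 0.1, 1, 10, 100 or 1000 µM, and the control cells received none. Before exposure the culture medium with serum was removed and the cells were washed, so every group, control included, spent the 24 h in DMEM without serum. Each of the 7 groups had 3 biological replicates, giving 21 libraries of poly(dT)-selected RNA, all harvested at the same single time.

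The mammalian clock is a transcriptional feedback loop. CLOCK pairs with BMAL1 and binds E-boxes to activate the PER and CRY genes, whose proteins return to the nucleus and repress that activation. In a second loop the REV-ERB receptors repress BMAL1 and the ROR receptors activate it, and in a further one the activators DBP and TEF compete with the repressor NFIL3 at D-boxes. In liver these loops time metabolic genes. A serum change can reset the clocks of cultured cells, and the data hold no time series, so phase and level cannot be told apart here.

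At the 2 highest doses members changed in both directions. At 1000 µM PER3, CRY2, TEF and PER1 fell and CRY1 and PER2 rose. At 100 µM PER3, CRY2, TEF and NR1D2 fell and DBP rose, but the PER3 and DBP calls at this dose were lost when library sets described below were added to the fit. The calls of PER1 at 1000 µM and of TEF and NR1D2 at 100 µM were lost when certain single libraries were left out. PER3 at 1000 µM was 2.99-fold lower than control and CRY1 1.70-fold higher. At 0.01, 0.1, 1 and 10 µM none of the 10 genes passed the test, but with the library sets in the fit NR1D2 was lower at 0.01 and at 1 µM. It was not called at either dose when the set that holds the controls was fitted alone.

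Promoter sequences are given for the members whose window held a 6-base E-box or an 8-base D-box, since these are among the elements through which the clock acts on its own genes. The windows are the 250 bases before each RefSeq start (GRCh38.p14). Motifs were searched in all 250 bases, and each printed sequence stops before the first base that lies in an annotated exon. Capitals mark the E-box CACGTG, the D-box TTATGTAA or TTACGTAA on either strand, and the short cAMP response element TGACG, and each sequence runs 5′ to 3′ on the gene's strand.

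PER1, chr17:8152436-8152654 (- strand): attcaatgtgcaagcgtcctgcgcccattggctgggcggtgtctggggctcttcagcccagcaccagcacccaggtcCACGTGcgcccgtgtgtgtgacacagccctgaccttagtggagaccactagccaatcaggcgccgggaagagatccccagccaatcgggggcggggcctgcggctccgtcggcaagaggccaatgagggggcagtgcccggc
PER3, chr1:7784041-7784290 (+ strand): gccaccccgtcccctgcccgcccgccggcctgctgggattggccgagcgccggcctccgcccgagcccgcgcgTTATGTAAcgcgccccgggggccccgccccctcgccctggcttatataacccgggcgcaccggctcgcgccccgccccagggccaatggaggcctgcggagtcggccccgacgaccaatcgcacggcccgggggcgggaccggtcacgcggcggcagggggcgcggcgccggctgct
NR1D2, chr3:23945871-23946120 (+ strand): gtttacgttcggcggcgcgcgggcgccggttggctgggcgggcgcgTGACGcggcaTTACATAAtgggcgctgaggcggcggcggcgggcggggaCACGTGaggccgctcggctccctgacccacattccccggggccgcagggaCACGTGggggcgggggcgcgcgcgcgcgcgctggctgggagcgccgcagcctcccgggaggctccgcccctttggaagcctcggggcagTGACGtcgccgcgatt
TEF, chr22:41367205-41367332 (+ strand): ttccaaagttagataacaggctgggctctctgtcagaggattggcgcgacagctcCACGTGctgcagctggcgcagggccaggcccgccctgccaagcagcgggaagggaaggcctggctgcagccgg
TEF, chr22:41381692-41381928 (+ strand): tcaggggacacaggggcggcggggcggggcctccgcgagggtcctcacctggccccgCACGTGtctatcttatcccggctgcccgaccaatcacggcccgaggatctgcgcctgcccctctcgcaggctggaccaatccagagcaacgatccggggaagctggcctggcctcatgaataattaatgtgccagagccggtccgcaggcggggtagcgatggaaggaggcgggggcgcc

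The printed bases of PER3 and of the first TEF window lie before the GENCODE 29 start of their gene. Those of PER1, NR1D2 and the second TEF window lie before starts inside their gene, outside its exons. The rest of the PER1 window and of both TEF windows, not printed, begins in an annotated exon. Among the 15 windows of the 10 members, 4 held an E-box, from PER1, NR1D2 and TEF, and that of NR1D2 held 2. An E-box was present in 6.34% of the 35116 RefSeq windows of this length. A D-box was found in 2 of the 15 windows, from PER3 and NR1D2, and in 0.94% of all windows. The short cAMP response element was found in 5 of the 15 windows, from PER2, CRY1, CRY2 and NR1D2, and in 21.2% of all windows. The CRY1 window and the second CRY2 window begin inside an annotated exon. The complete element TGACGTCA (1.65% of all windows) and the ROR element ANTAGGTCA (0.43%), the site shared by ROR and REV-ERB receptors, had no match in the members' windows. All motifs were searched on both strands, TGACG lies within TGACGTCA, and a match is a description of letters only.

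Total counts ran from 23502519 to 44815552 per library. All 8 hepatocyte markers were present at 1 CPM or more in every library, with summed levels of 30612 to 38768 CPM in control and 25901 to 27100 CPM at 1000 µM, where CPM are counts per 1000000 after TMM scaling. PTPRC, CD3E, VWF, CDH5, COL1A1, COL1A2 and COL3A1 were at or below 0.249 CPM in every library, while CD68 ran from 18.2 to 71.7 CPM and PDGFRB from 2.98 to 23.5 CPM. The summed level of the 4 fibroblast and stellate markers, nearly all of it PDGFRB, was 3.18 to 3.85 CPM in control, 5.51 to 6.49 CPM at 100 µM and 18.2 to 23.5 CPM at 1000 µM, and its part in the results was not tested. In bulk RNA, fewer cells of a type and less RNA per cell cannot be told apart. The libraries fell into 3 sets by their mitochondrial mRNAs. Set A (11 libraries) comprised the control, 0.01 and 0.1 µM groups and, from the 1 µM group, replicates 1 and 2, with 9.95% to 14.2% of counts from mitochondrial mRNAs. Set B (7) comprised the 10 µM group, the remaining 1 µM library (replicate 3), the 100 µM library of replicate 2 and the 1000 µM libraries of replicates 1 and 2, with 4.72% to 4.94%. Set C (3) comprised the 100 µM libraries of replicates 1 and 3 and the 1000 µM library of replicate 3, with 11.8% to 12.8%. Every control was in set A and no library at 100 or 1000 µM was. The members' changes are therefore given also from a fit that carries the set beside the group (the set-adjusted fit), and from 1000 µM against 10 µM within set B. Set A shared a group with another set only at 1 µM, where replicate 3 alone was in set B, so every set-adjusted difference from control at 10, 100 and 1000 µM rests on that 1 library.

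**Figure D1:**
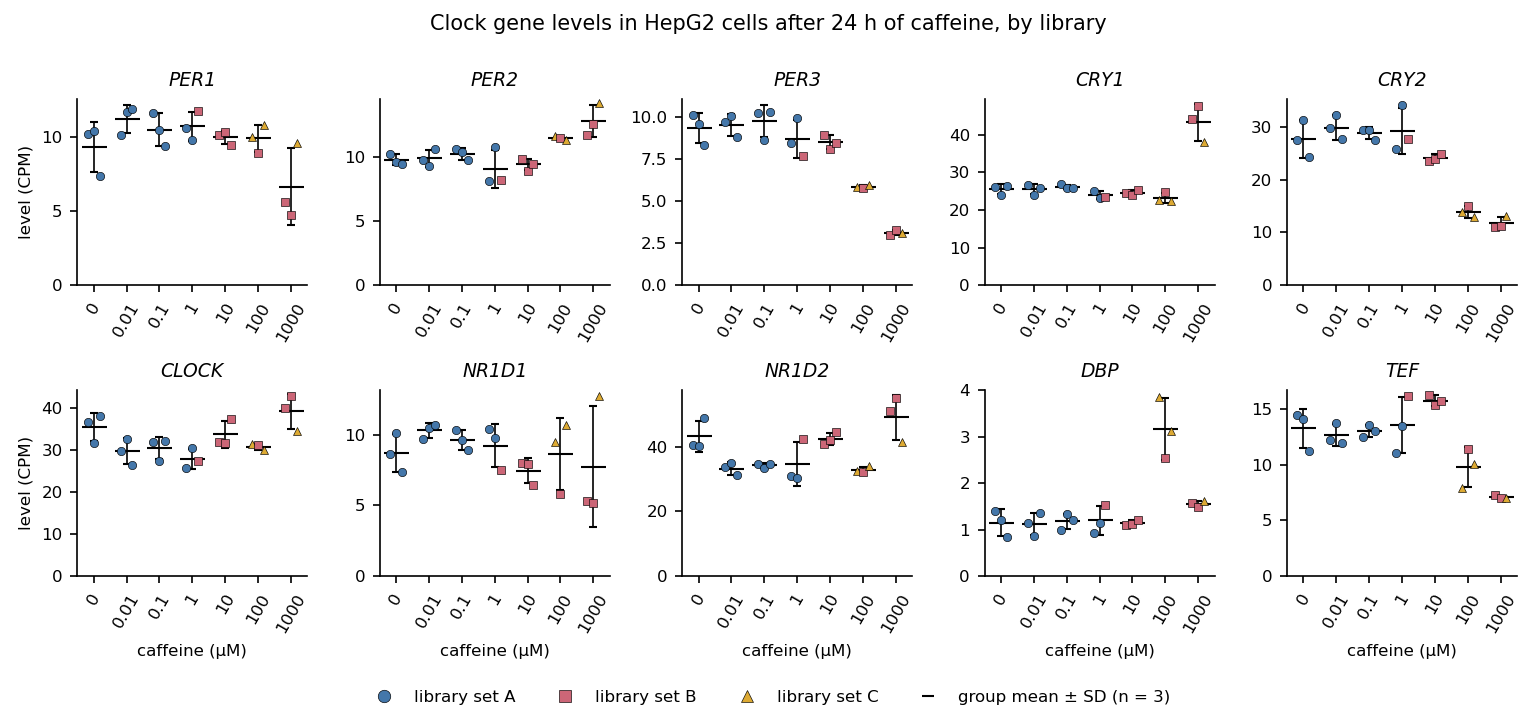
Level in CPM (vertical axis, from 0) of the 10 clock genes in each of the 21 libraries against the caffeine dose in µM (horizontal axis, equally spaced); symbols give the library set and bars the group mean ± SD (n = 3). PER3 and CRY2 libraries at 100 and 1000 µM all lie below the controls, and CRY1 libraries at 1000 µM all lie above them.

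CLOCK, which forms the activating complex with BMAL1, stood at 36.8, 31.8 and 38.2 CPM in the 3 control libraries. It was at 31.4, 31.2 and 30.0 CPM at 100 µM and at 40.1, 43.0 and 34.7 CPM at 1000 µM. The 1000 µM libraries overlapped the controls, and the difference of 0.14 ± 0.107 (log2, SE) did not pass the test, nor did that at 100 µM. Between 1000 and 100 µM the groups did not overlap and CLOCK was higher at 1000 µM by 0.35 ± 0.108 on the log2 scale (adjusted p = 0.013, edgeR's quasi-likelihood test with Benjamini-Hochberg adjustment, as for every adjusted p below). Without replicate 2 at 1000 µM this difference was 0.28 and did not pass. The set-adjusted difference was 0.30 ± 0.11 (adjusted p = 0.0315), and within set B CLOCK was higher at 1000 than at 10 µM by 0.28 ± 0.0759 (adjusted p = 0.00595). Against control the set-adjusted differences did not pass at either dose (adjusted p = 0.856 at 100 µM and 0.37 at 1000 µM).

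Of the period genes, which encode the repressors that carry cryptochromes to the nucleus, PER3 fell most. PER3 stood at 10.1, 9.58 and 8.36 CPM in control, at 5.85, 5.80 and 5.96 CPM at 100 µM and at 2.99, 3.295 and 3.11 CPM at 1000 µM. In the 12 libraries at 0.01 to 10 µM it ran from 7.72 through a median of 8.87 to 10.3 CPM. The 3 groups were thus fully separate, in the order control, 100 µM and 1000 µM. The fall was 0.67 ± 0.112 at 100 µM on the log2 scale (adjusted p = 6.8e-05) and 1.58 ± 0.117 at 1000 µM (adjusted p = 1.13e-09). In the set-adjusted fit the 100 µM difference of -0.43 ± 0.2 did not pass (adjusted p = 0.156), and the 1000 µM fall was 1.33 ± 0.191 (adjusted p = 2.11e-05). Within set B, PER3 was lower at 1000 than at 10 µM by 1.46 ± 0.12 on the log2 scale (adjusted p = 3.12e-07). PER3 shares 868 exonic bases (10.7% of its exons) with UTS2 and 482 with Z98884.1 on the opposite strand, and UTS2 was at 0 counts in every library.

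PER2 moved the other way. It stood at 10.2, 9.63 and 9.43 CPM in control, at 11.6, 11.5 and 11.3 CPM at 100 µM and at 11.7, 12.5 and 14.2 CPM at 1000 µM. All 6 libraries at these doses lay above the 3 controls. The rise at 1000 µM was 0.39 ± 0.107 on the log2 scale (adjusted p = 0.0043), 0.55 ± 0.184 after set adjustment (adjusted p = 0.024) and 0.34 ± 0.0896 against 10 µM within set B (adjusted p = 0.00444). The last of these was 0.287 and did not pass without replicate 2 at 1000 µM. At 100 µM the difference of 0.23 ± 0.107 did not pass (adjusted p = 0.0848), but did so without replicate 2 at 1 µM (adjusted p = 0.0427).

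PER1, which responds early to cAMP and serum signals, was less uniform. Its 1000 µM libraries stood at 5.66, 4.75 and 9.62 CPM against 10.2, 10.4 and 7.401 CPM in control, while the 100 µM libraries stood at 10.0, 8.95 and 10.8 CPM. Replicates 1 and 2 at 1000 µM, both of set B, lay below every control, and replicate 3, of set C, lay within their range. The fall at 1000 µM was 0.50 ± 0.189 on the log2 scale (adjusted p = 0.0292). The fall did not pass without control replicate 1 (-0.44) or 2 (-0.42), without 1000 µM replicate 1 (-0.39) or 2 (-0.31), or with only the groups compared in the fit (-0.49). Set adjustment gave a fall of 0.92 ± 0.251 (adjusted p = 0.00709), and within set B PER1 was lower at 1000 than at 10 µM by 0.95 ± 0.111 (adjusted p = 7.52e-06).

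The cryptochromes, the main repressors of the CLOCK complex, moved in opposite directions. CRY2 stood at 27.6, 31.3 and 24.2 CPM in control, at 13.8, 15.0 and 12.8 CPM at 100 µM and at 10.9, 11.3 and 13.2 CPM at 1000 µM. All 6 treated libraries lay below the 3 controls and below the 12 libraries at 0.01 to 10 µM, which ran from 23.5 through a median of 27.7 to 34.1 CPM. CRY2 fell by 0.99 ± 0.115 at 100 µM (adjusted p = 1.13e-06) and by 1.24 ± 0.116 at 1000 µM (adjusted p = 3.02e-08) on the log2 scale. After set adjustment the falls were 0.90 ± 0.209 (adjusted p = 0.00567) and 1.13 ± 0.2 (adjusted p = 0.000185), and within set B CRY2 was lower at 1000 than at 10 µM by 1.14 ± 0.0744 (adjusted p = 3.93e-08). The step from 100 to 1000 µM, -0.24 ± 0.116, did not pass (adjusted p = 0.101), but did without replicate 3 at 1000 µM (-0.33, adjusted p = 0.0338). No annotated gene shares exonic bases with CRY2.

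CRY1 stood at 26.2, 24.1 and 26.3 CPM in control, at 22.6, 24.8 and 22.4 CPM at 100 µM and at 44.2, 47.8 and 38.0 CPM at 1000 µM. At 0.01 to 10 µM its 12 libraries ran from 23.2 through a median of 25.2 to 26.9 CPM, so the 1000 µM libraries stood apart from all the other 18. The rise at 1000 µM was 0.76 ± 0.0845 on the log2 scale (adjusted p = 2.84e-07), and at 100 µM the difference was -0.13 ± 0.0848 and did not pass. After set adjustment the rise was 0.86 ± 0.13 (adjusted p = 3.68e-05), and within set B it was 0.88 ± 0.0624 against 10 µM (adjusted p = 8.27e-08). The ratio of CRY1 to CRY2, each in CPM per kilobase of exon, was 1.15 ± 0.194 in control, 2.06 ± 0.0702 at 100 µM and 4.56 ± 0.896 at 1000 µM (SD, n = 3). At 10 µM it was 1.25 ± 0.0244, within the range of the control libraries (0.944 to 1.33), and the 100 and 1000 µM libraries lay above that range. The ratio of PER2 to PER3 on the same scale was 1.23 ± 0.0815 in control, 2.301 ± 0.0589 at 100 µM and 4.82 ± 0.48 at 1000 µM, again without overlap between the 3 groups.

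**Figure D2:**
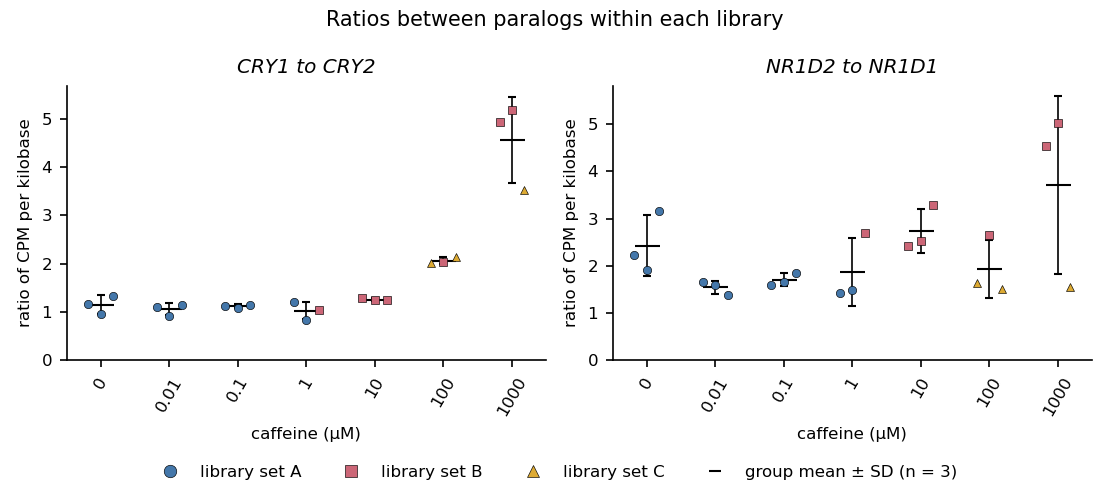
Ratio of CPM per kilobase of exon between paralogs in each of the 21 libraries (vertical axis, from 0) against the caffeine dose in µM; symbols give the library set and bars the group mean ± SD (n = 3). CRY1 to CRY2 is above the controls in all 6 libraries at 100 and 1000 µM, while NR1D2 to NR1D1 at 1000 µM is 1.55 in the set C library and 4.55 and 5.03 in the 2 set B libraries.

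The REV-ERB receptors are heme-sensing nuclear receptors that repress BMAL1. NR1D2 stood at 40.5, 40.3 and 48.7 CPM in control, at 32.3, 32.1 and 34.0 CPM at 100 µM and at 50.9, 55.0 and 41.3 CPM at 1000 µM. The 100 µM libraries lay below all controls, but so did all 6 libraries at 0.01 and 0.1 µM (31.1 to 34.9 CPM). The fall at 100 µM was 0.40 ± 0.12 on the log2 scale (adjusted p = 0.0113), and did not pass without control replicate 3 (-0.285). Set adjustment gave a fall of 0.75 ± 0.171 (adjusted p = 0.00455). In that fit NR1D2 was also lower at 0.01 µM (-0.38, adjusted p = 0.0327) and at 1 µM (-0.49, adjusted p = 0.0411). Control and 0.01 µM are both in set A, and the 0.01 µM difference was -0.38 without the set too. Only its SE was smaller with the set (0.0885 in place of 0.12). A fit of the set A libraries alone called NR1D2 at neither dose. At 1000 µM the difference was 0.19 ± 0.119 (adjusted p = 0.192) and, set-adjusted, -0.23 ± 0.161 (adjusted p = 0.276), so the sign differed between the fits. Without replicate 3 at 1000 µM it was 0.29 (adjusted p = 0.0404). Within set B it was higher at 1000 than at 10 µM by 0.30 ± 0.0615 (adjusted p = 0.000899).

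NR1D1, the other REV-ERB receptor, stood at 8.65, 10.1 and 7.36 CPM in control, at 9.45, 5.80 and 10.7 CPM at 100 µM and at 5.33, 5.21 and 12.7 CPM at 1000 µM. At both high doses the set C libraries were at or above 9.45 CPM and the set B libraries at or below 5.80 CPM. The difference at 1000 µM was -0.19 ± 0.273 on the log2 scale and did not pass (adjusted p = 0.575), nor did the set-adjusted one (-0.21 ± 0.227, adjusted p = 0.494). Without replicate 3 at 1000 µM, the set C library, it was -0.73 (adjusted p = 0.00441), and within set B it was -0.52 ± 0.126 against 10 µM (adjusted p = 0.00263). NR1D1 shares 263 exonic bases (9.49% of its exons) with THRA on the opposite strand, the thyroid hormone receptor gene, which fell by 0.66 ± 0.103 on the log2 scale at 1000 µM. Whether the counting used strand is not given in the sources used here, so reads from the shared bases cannot be told apart. Beyond NR1D1, PER3 and DBP, no member shared more than 2.73% of its exonic bases (PER2) with any 1 annotated gene.

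The D-box activators are PAR bZIP factors that are usually read as outputs of the clock. TEF stood at 14.5, 14.0 and 11.2 CPM in control, at 7.87, 11.4 and 10.1 CPM at 100 µM and at 7.25, 7.05 and 7.05 CPM at 1000 µM. The 100 µM libraries overlapped the controls by 1 library, and the 1000 µM libraries lay below all other libraries. TEF fell by 0.90 ± 0.139 at 1000 µM on the log2 scale (adjusted p = 1.85e-05), by 1.23 ± 0.203 after set adjustment (adjusted p = 9.47e-05) and by 1.16 ± 0.0859 from 10 to 1000 µM within set B (adjusted p = 1.24e-07). The 10 µM libraries, where this last fall starts, ran from 15.3 to 16.2 CPM and all lay above the controls. Their difference from control, 0.25 ± 0.134, did not pass (adjusted p = 0.223). At 100 µM the fall was 0.44 ± 0.137 (adjusted p = 0.0137) and 0.71 ± 0.213 after set adjustment (adjusted p = 0.0265). That at 100 µM did not pass without control replicate 1 (-0.37) or 2 (-0.39), without 100 µM replicate 1 (-0.30), or with only the groups compared (-0.44).

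DBP was the scarcest member, with 22 to 119 counts per library. It stood at 1.41, 1.22 and 0.844 CPM in control, at 3.86, 2.54 and 3.13 CPM at 100 µM and at 1.58, 1.49 and 1.62 CPM at 1000 µM. The 100 µM libraries lay above all 18 others, of which the highest was at 1.62 CPM. The rise at 100 µM was 1.44 ± 0.225 on the log2 scale (adjusted p = 3.85e-05), and DBP was lower at 1000 than at 100 µM by 1.02 ± 0.222 (adjusted p = 0.00102). Set-adjusted, the difference of 0.69 ± 0.393 at 100 µM did not pass (adjusted p = 0.258), while that between 1000 and 100 µM was -0.90 ± 0.209 (adjusted p = 0.00149). At 1000 µM all DBP libraries lay above the controls, but the difference of 0.42 ± 0.23 did not pass (adjusted p = 0.125). Set-adjusted it was -0.22 ± 0.375 (adjusted p = 0.691), so the sign differed between the fits. Among the 100 µM libraries the 2 of set C were at 3.86 and 3.13 CPM and the one of set B at 2.54 CPM. DBP shares 661 exonic bases (10.1%) with SPHK2 on the opposite strand, which fell by 1.69 ± 0.147 at 100 µM on the log2 scale, opposite in direction to DBP. From 100 to 1000 µM both fell, SPHK2 from a mean of 17.1 to 7.55 CPM. The part of reads from the shared bases was not tested.

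**Figure D3:**
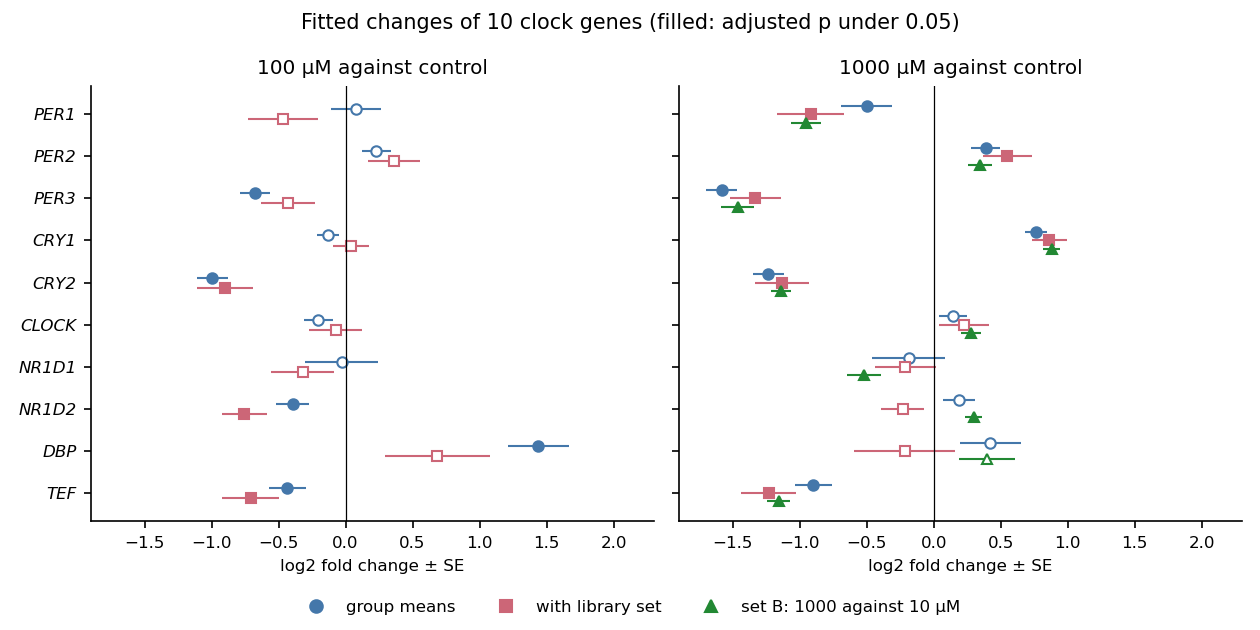
Fitted log2 fold change ± SE (horizontal axis) of the 10 genes (vertical axis) at 100 µM (left) and 1000 µM (right) against control, from the fit of group means and the fit with the library set, and, at the right, for 1000 against 10 µM within set B. Filled symbols passed an adjusted p of 0.05; PER3, CRY2, TEF and PER1 lie below 0 and CRY1 and PER2 above 0 in all 3 comparisons at 1000 µM.

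At 100 µM 5 of the 10 members were called, 1 higher and 4 lower, where 46.6% of all 17951 tested features were called (23.6% higher, 22.9% lower). At 1000 µM 6 of 10 were called, 2 higher and 4 lower, where 57.6% of all features were (28.5% higher, 29.1% lower). These shares are close to the background, so the number of clock genes called is not a result about the clock. The members' median log2 difference was -0.17 at 100 µM and -0.02 at 1000 µM, beside -0.01 and -0.01 over all features. In the set-adjusted fit 3 members were called at 100 µM (17.3% of all features) and 6 at 1000 µM (38% of all features), the same 6 genes in the same directions. At 0.01, 0.1, 1 and 10 µM none was called by edgeR, DESeq2 or limma-voom, where edgeR called 0.0279%, 0%, 0.106% and 14.8% of all features. At an unadjusted p under 0.05 edgeR had 2, 1, 2 and 0 members at these doses. The set-adjusted fit called NR1D2 at 0.01 µM, beside 3.02% of all features, and at 1 µM, beside 0.629%. Between 1000 and 100 µM 7 members were called (3 higher, 4 lower), beside 44% of all features (21.8% higher, 22.3% lower). Of these, TEF did not pass without replicate 2 at 100 µM (-0.33), and PER1 failed to pass when replicate 3 of the 100 µM group was left out (-0.52), or else replicate 1 (-0.47) or 2 (-0.39) of the 1000 µM group. Neither passed with only the groups compared in the fit (adjusted p = 0.0648 for TEF and 0.132 for PER1).

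Within set B, 9 of 10 members differed between 1000 µM (2 libraries) and 10 µM (3 libraries), beside 69.1% of all 17090 features tested there (34.1% higher, 35% lower). The members were split with CRY1, PER2, CLOCK and NR1D2 higher and PER3, CRY2, TEF, PER1 and NR1D1 lower, and CLOCK (0.22) and PER2 did not pass without replicate 2 at 1000 µM. Over the 7 groups jointly, 9 members differed, all but NR1D1, beside 73.6% of all features, and PER1 did not pass without replicate 1 or 2 at 1000 µM (adjusted p = 0.162 and 0.158). NR1D1 did pass without replicate 3 (adjusted p = 0.00669) and in the set-adjusted fit (adjusted p = 0.0393), which called all 10 members, beside 59.8% of all features. The slope on dose rank passed for 6 members (positive for CRY1, PER2 and DBP, negative for PER3, CRY2 and TEF). Of all features 55.3% passed (29.6% positive, 25.7% negative). A slope does not show a steady change with dose. DBP's mean was 1.15 CPM at 10 µM, 3.18 CPM at 100 µM and 1.56 CPM at 1000 µM. TEF's was 13.2 CPM in control, 15.7 CPM at 10 µM and 7.115 CPM at 1000 µM. Leaving out 1 library at 1000 µM ended the slope calls of TEF (any of the 3 replicates), CRY1 (replicate 1 or 2) and PER2 (replicate 2 or 3), and PER2 also did not pass without the filter on low counts (adjusted p = 0.0597). The set-adjusted fit called no slope, beside 4.27% of all features, and 5 members had an unadjusted p under 0.05. Its slopes were 0.155 for CRY1 (0.0798 without the set), 0.0792 for PER2 (0.0537) and -0.184 for TEF (-0.103). They were -0.2013 for PER3 (-0.2125), -0.1546 for CRY2 (-0.2176) and 0.0018 for DBP (0.1763). As the groups share the control libraries, the doses are given side by side and not as independent evidence of each other.

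Per kilobase of exon, NR1D2 was the most abundant member in control (7.42 ± 0.827 CPM per kilobase), followed by CRY1 (5.05 ± 0.247) and CRY2 (4.47 ± 0.569), whose libraries overlapped each other. NR1D1 (3.14 ± 0.494), CLOCK (3.03 ± 0.287) and TEF (2.81 ± 0.372) overlapped as neighbours, as did PER2 (1.42 ± 0.0609), PER1 (1.34 ± 0.241) and PER3 (1.16 ± 0.111), and DBP was lowest (0.177 ± 0.0438; all SD, n = 3). At 1000 µM CRY1 (8.56 ± 0.974) and NR1D2 (8.43 ± 1.21) overlapped at the top, CRY2 stood at 1.90 ± 0.195 and PER3 at 0.386 ± 0.0193. Exon lengths came from GENCODE 29 and may differ from those the authors counted over.

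Of 28 other clock-related genes, 26 had enough counts, RORB and BHLHE41 having at most 1 and 2 counts in a library. Against control 17 of the 26 were called at 100 µM (11 higher, 6 lower) and 20 at 1000 µM (11 higher, 9 lower), beside 46.6% and 57.6% of all features. The set-adjusted fit called 9 and 15, beside 17.3% and 38% of all features. Their median log2 difference was 0.18 at both doses. At 0.01, 0.1 and 1 µM none was called by edgeR (3, 4 and 6 at an unadjusted p under 0.05), and at 10 µM 1 was, beside 14.8% of all features.

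BMAL1, the partner of CLOCK, stood at 16.2, 17.5 and 19.98 CPM in control, at 11.7, 11.8 and 11.96 CPM at 100 µM and at 7.07, 7.02 and 7.50 CPM at 1000 µM. The 3 groups did not overlap. BMAL1 fell by 1.31 ± 0.102 on the log2 scale at 1000 µM (adjusted p = 2.08e-09), and by 0.99 ± 0.15 after set adjustment (adjusted p = 3.95e-05). At 100 µM it fell by 0.60 ± 0.0987, but the set-adjusted difference of -0.28 ± 0.157 did not pass (adjusted p = 0.241). The paralog BMAL2 did not pass at 1000 µM (0.37 ± 0.197). NPAS2, an alternative partner of BMAL1 that was picked out after its values were seen, stood at 93.0, 89.8 and 78.2 CPM in control and at 108.5, 96.2 and 151 CPM at 1000 µM, where replicate 3, of set C, was highest. It rose by 0.45 ± 0.143 (adjusted p = 0.0119) and, set-adjusted, by 0.58 ± 0.16 (adjusted p = 0.00752). The difference did not pass without replicate 3 at 1000 µM (0.23, adjusted p = 0.121), without control replicate 3 (0.38), or with only the groups compared (0.45, adjusted p = 0.0655).

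RORA, a ROR receptor that opposes the REV-ERB receptors at BMAL1, stood at 31.9, 26.8 and 33.4 CPM in control, at 20.1, 23.8 and 21.2 CPM at 100 µM and at 22.9, 28.1 and 15.5 CPM at 1000 µM. The 100 µM libraries lay below all controls and the 1000 µM libraries overlapped them. The libraries at 0.01, 0.1 and 1 µM also lay below all controls, with means of 22.4 ± 1.91, 23.7 ± 1.15 and 23.2 ± 1.56 CPM (SD, n = 3) beside 21.7 ± 1.91 CPM at 100 µM, but did not pass the test (adjusted p = 0.192, 0.452 and 0.208). Set-adjusted, the 0.01 µM difference passed (adjusted p = 0.0389). RORA fell by 0.50 ± 0.15 and 0.47 ± 0.15 at 100 and 1000 µM on the log2 scale (adjusted p = 0.0108 and 0.0118). The set-adjusted differences were -0.34 and -0.48, and neither passed (adjusted p = 0.323 and 0.069). The 1000 µM difference also did not pass without replicate 3 at 1000 µM (-0.27) or with only the groups compared (-0.47, adjusted p = 0.0944).

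NFIL3, the D-box repressor, stood at 24.5, 28.5 and 33.3 CPM in control, at 49.5, 44.8 and 48.1 CPM at 100 µM and at 81.4, 86.0 and 105 CPM at 1000 µM. It rose by 0.72 ± 0.106 at 100 µM and by 1.66 ± 0.107 at 1000 µM on the log2 scale (adjusted p = 1.83e-05 and 1.74e-10). The set-adjusted rise at 1000 µM was 1.4997 ± 0.17 (adjusted p = 1.47e-06), and the difference at 100 µM did not pass (adjusted p = 0.0554). HLF, the third PAR bZIP activator beside DBP and TEF, rose by 0.72 ± 0.0624 at 1000 µM (adjusted p = 9.79e-09), opposite in direction to TEF, and by 0.79 ± 0.109 after set adjustment.

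**Figure D4:**
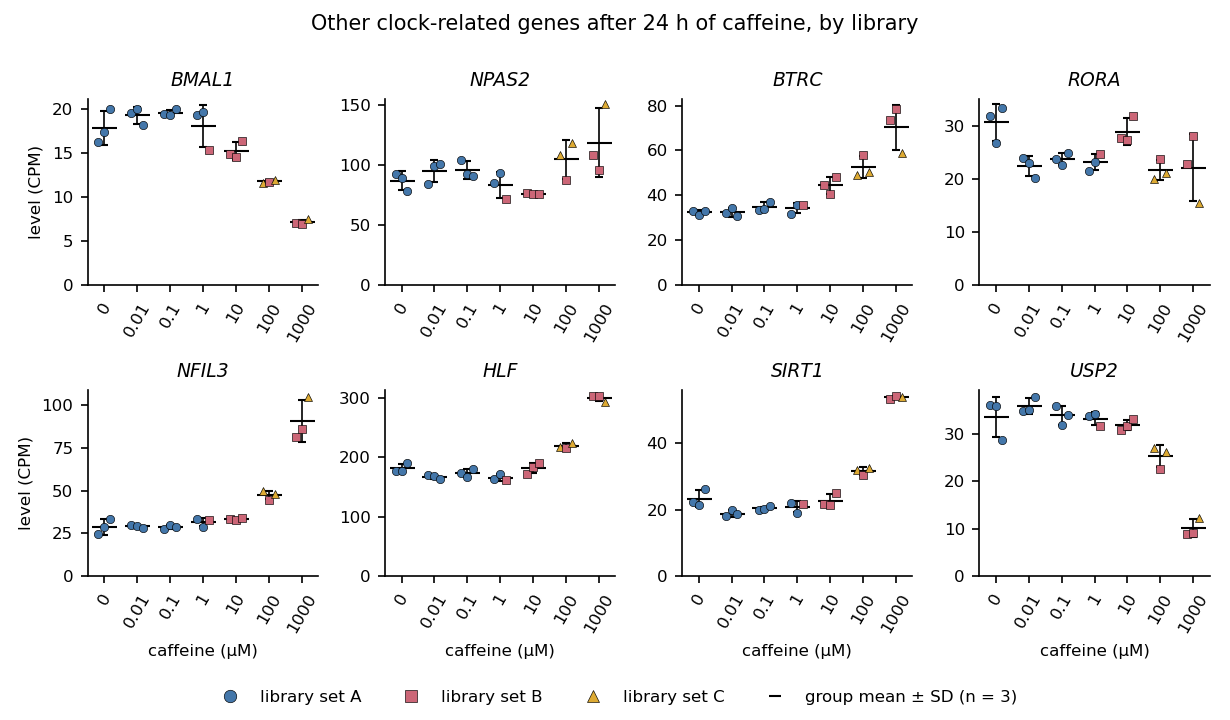
Level in CPM (vertical axis, from 0) of 8 other clock-related genes in each of the 21 libraries against the caffeine dose in µM; symbols give the library set and bars the group mean ± SD (n = 3). BMAL1 and USP2 libraries at 1000 µM all lie below the controls and those of BTRC, NFIL3, HLF and SIRT1 all lie above them.

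Among the other roles, the E-box repressor BHLHE40 was higher at 100 µM by 0.48 ± 0.126 and lower at 1000 µM by 0.45 ± 0.127 on the log2 scale (adjusted p = 0.00411 and 0.00539), and only the first passed after set adjustment (adjusted p = 0.00597 and 0.561). Its mean was 45.0 ± 2.21 CPM in control and 62.9 ± 2.96 CPM at 100 µM, and also 61.0 ± 5.29 CPM at 0.01 µM and 55.9 ± 1.02 CPM at 0.1 µM (SD, n = 3). The libraries at these 2 low doses all lay above the controls but did not pass the test (adjusted p = 0.146 and 0.452), and set-adjusted the 0.01 µM difference did (adjusted p = 0.023). CIART, a repressor of the CLOCK complex, fell by 1.14 ± 0.267 at 1000 µM, and set-adjusted it did not pass (adjusted p = 0.225). It was scarce, with 4 to 37 counts per library, which limits the precision of this fold. Its libraries at 0.01 and 1 µM all lay above the controls. BTRC, a ubiquitin ligase subunit that marks period proteins for degradation, was the gene called at 10 µM (0.46 ± 0.102, adjusted p = 0.00822), where the set-adjusted fit called none of the 26, and rose by 1.12 ± 0.103 at 1000 µM (adjusted p = 2.39e-08). The deacetylase SIRT1 rose by 1.21 ± 0.0889 (adjusted p = 1.1e-09) and the REV-ERB corepressor subunit HDAC3 fell by 0.59 ± 0.0689 (adjusted p = 6.25e-07). NCOR1, the corepressor that HDAC3 binds and which was picked out after its values were seen, rose by 0.61 ± 0.116 (adjusted p = 0.000173) and, set-adjusted, by 0.89 ± 0.2. The clock output USP2, a ubiquitin protease, fell by 1.73 ± 0.118 (adjusted p = 3.51e-10). Set-adjusted, the 1000 µM changes were 1.13 ± 0.145 for BTRC, 1.11 ± 0.16 for SIRT1, -0.51 ± 0.115 for HDAC3 and -1.75 ± 0.156 for USP2, and all 4 passed. TSC22D3, a glucocorticoid-induced gene, rose (adjusted p = 1.35e-07) from 0.0611, 0.104 and 0.0383 CPM in control to 1.76, 2.06 and 1.49 CPM at 1000 µM, and no fold is given since its control libraries had 1 to 4 counts, and it passed after set adjustment (adjusted p = 0.00104).

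PER3 had the smallest joint p of the members (2.27e-10, adjusted 4.24e-09). Over the 7 group means of log2 CPM, the features most like it among 10616 with a symbol and at least 5 CPM were CYFIP2 (Pearson r = 0.9995), CABIN1 (0.9984) and BCAS1 (0.9972). The 7 points share libraries with every other value given here, so these correlations are a description.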

How the data were processed

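Poly(dT)-bead RNA of 21 HepG2 libraries was copied with a SmartScribe kit, per the labels' protocols. The authors deposited raw read counts for each feature, in whole numbers that had not been normalized. The submitters' processing notes name HISAT2, DESeq2 and the GRCh38 build. The counting tool, annotation release and use of strand are not given in the sources used here. The table's 21 other per-sample columns were left out.

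Samples were grouped by the dose in their titles. The labels call the replicates biological, but nothing else shows separate cultures, so p-values measure only the spread between these samples. Replicates of a group differed by more than counting noise (chi-square per feature of at least 3.59 over 21 pairs). Same-numbered samples did not deviate together (mean correlations of -0.108 to 0.152 over 21 pairs of groups, 1 of them over 0.1), so the numbers were not taken as pairs.

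The filter was edgeR's filterByExpr, which kept 17951 features, and the scaling TMM. A single quasi-likelihood model of all 21 libraries (edgeR 4.0.16 in R 4.3.3, robust option) held one mean for each dose. P-values (2-sided) were adjusted over all features tested by Benjamini-Hochberg, with a threshold of 0.05. Slopes on dose rank (0 to 6) were fitted separately, and set B was fitted alone. A standard error is the absolute log2 fold change over the square root of F. Library sets came from average-linkage clustering of 13 mitochondrial mRNAs (mean silhouette 0.571 for 3 clusters). Levels are CPM, and for per-kilobase values they were divided by GENCODE 29 exon lengths.

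Alternatives were DESeq2 size factors, DESeq2 1.42.0, limma-voom (limma 3.58.1), leaving the filter out, a minimum mean of 5 CPM, only the groups compared, the replicate number as a block, the library set as a term, log10 or linear dose, set A alone, and each library left out in turn. All members were described. Of the other clock-related genes, at most the 2 with the smallest joint p per role were named, plus every BMAL, NFIL3 and ROR gene tested, and some genes that this rule names are not reported here. THRA, SPHK2 and UTS2 were named for their overlap, SPHK2 and UTS2 after their values were seen. Members and lists were chosen with earlier results of these data known.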

Additional observations from a re-analysis of the deposited data

How the results depend on the processing

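With the library set as a term, 1 member was called at 0.01 µM and 1 at 1 µM (NR1D2 both times) in place of 0, 3 at 100 µM in place of 5, 0 slopes on dose rank in place of 6, and 10 in the joint test in place of 9 (NR1D1 added). The cause was not tested, and the set and the group are largely confounded, since every control was in set A. Leaving out 1 library at a time gave 4 to 6 members at 100 µM, 5 to 8 at 1000 µM, 5 to 9 between 1000 and 100 µM, 7 to 9 within set B, 8 to 10 in the joint test and 3 to 7 for the slope, where the 3 came without replicate 2 at 1000 µM, and 0 to 0 at each of the 4 lower doses. For the other clock-related genes, summed over the 6 doses, it gave 34 to 42 calls around 38. With the replicate number as a block the counts were 5 at 100 µM and 6 at 1000 µM, as without it, and no call was lost. Leaving aside the joint test and slopes on other dose scales, 33 pairs of gene and comparison were called, set B included, and 733 of 768 values under the alternatives kept their direction and stayed past the threshold, 35 kept their direction and did not stay past it, and 0 changed sign. On a linear dose axis 8 slopes passed, with CLOCK, NR1D2 and PER1 added and DBP lost (adjusted p = 0.57). DBP was not tested with a mean of at least 5 CPM. DBP's lowest library had 22 counts, which limits its precision more than that of any other member.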
